A study of Mus musculus with 7 samples.

Results

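The collagen chain genes are the mouse genes named Col, a type number, a and a chain number; 43 of the 23235 gene symbols in the deposited tables carried such a name. That name alone decided membership, but the set was taken up with earlier results of these data known. Each of the 43 had 1 entry per table with an accepted estimate in every library. They fell into 11 fibrillar chains, 8 chains of the basement membrane, 9 fibril-associated chains with interrupted helices (FACIT), and 15 other chains. RNA came from cultured fetal mouse kidneys of strain C57BL/6, from 3 libraries labelled E2-2 deleted and 4 labelled E2-2 wildtype. Beta-catenin, which carries the Wnt signal to the nucleus, was activated in both groups, so no library has it in its usual state. E2-2, the product of mouse Tcf4, belongs to the E proteins, which bind DNA through a basic helix-loop-helix domain. Kidneys were dissected at 10.5 days post coitum from mice given tamoxifen at 2 mg per 40 g of body weight at that stage, and were cultured for 3 to 4 days, per the labels' protocols. The labels name neither the Cre line nor the deleted exons, and do not say which libraries were cultured for 3 and which for 4 days, so culture time was not compared. They also do not say whether the libraries came from separate animals, and if they did not, the p-values reflect technical spread alone; in any case they describe these 7 libraries.

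Collagens are secreted proteins of 3 chains wound into a triple helix, and each chain has its own gene. Fibrillar collagens assemble into the tensile fibrils of connective tissue, FACIT collagens sit on the surface of those fibrils, and type IV collagens form the mesh of basement membranes. In the developing kidney, the stroma makes mostly fibrillar collagen, while tubules, the ureteric bud and vessels rest on type IV collagen, whose chain composition changes as the glomerular filter matures.

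Levels are FPKM (sequenced fragments per transcript length and per library size), which can be compared between genes because they are per length. Differences are E2-2 deleted minus E2-2 wildtype on the log2(FPKM + 1) scale, and for a gene near 1 FPKM this scale gives less than the true fold. The depth inferred from the deposited intervals was 17.6 M to 24.8 M fragments in the deleted and 14.5 M to 26.6 M in the wildtype libraries (M, mega), and among the 36 collagen genes with a mean of at least 1 FPKM the inferred number of fragments per gene and library was 38.0 (Col4a3) to 114302 (Col1a1). E2-2 deleted replicate 2 stood apart: over the 13520 genes tested it had the lowest value of the 7 libraries in 44.3% and the highest in 17.2%. In that library the nephron progenitor gene Six2 was at 2.69 FPKM, against 29.0 to 74.8 FPKM in the other 6, and the summed level of a list of 6 nephron progenitor genes was 52.3 FPKM, against 122 to 275 FPKM. Results that rest on this library are given with and without it. In bulk RNA, fewer cells of a type and less RNA per cell cannot be told apart.

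Collagen transcripts made up a small share of all transcripts and were led by a few chains. The 43 genes together summed to 2865, 4582 and 3219 FPKM in E2-2 deleted replicates 1 to 3 and to 2935, 3221, 3878 and 2358 FPKM in E2-2 wildtype replicates 1 to 4. These sums were 0.692% to 1.22% of the summed FPKM of the deleted libraries and 0.504% to 0.827% of that of the wildtype libraries, so the groups overlapped. Col1a1, Col1a2 and Col3a1, the chains of the major type I and type III fibrils, made up 49.7% to 53.8% of collagen FPKM in the deleted libraries and 45.5% to 61.8% in the wildtype libraries. With Col4a1 and Col4a2, the ubiquitous basement membrane chains, the share was 65.7% to 67.3% and 66.0% to 74.9%.

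**Figure D1:**
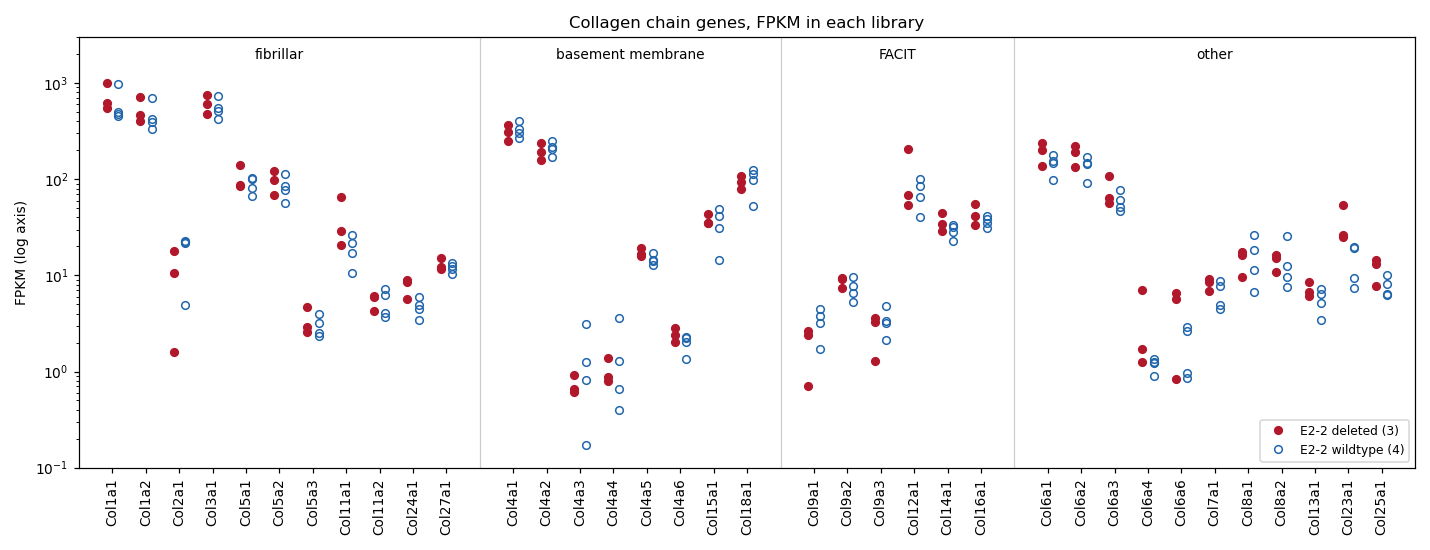
FPKM (log axis) of the 36 collagen genes with a mean of at least 1 FPKM in each library, by class; filled points are the 3 E2-2 deleted libraries and open points the 4 E2-2 wildtype libraries. Levels span from Col4a3 at 0.172 FPKM in 1 wildtype library to Col1a1 at 1006 FPKM in 1 deleted library, and the groups overlap in every gene except Col23a1.

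No collagen gene passed the threshold between genotypes. By limma, fitted over all 13520 genes with a mean of at least 1 FPKM and adjusted over all of them, 0 of the 36 collagen genes tested passed an adjusted p of 0.05, as did 0 of all genes (0% called), with a smallest adjusted p of 0.796. Col23a1 and Col24a1 (2 of 36) were higher at an unadjusted p under 0.05 and 0 were lower, beside 3.26% and 1.18% of all genes tested. The groups did not overlap in 1 of 36, Col23a1, with the deleted libraries above, beside 2.83% of all genes, and in 0 with them below, beside 2.04%. The difference was positive for 29 of the 36, where 39.3% of all genes were positive, and the median was 0.23, against -0.05 over all genes. Without E2-2 deleted replicate 2, 25 of 36 were positive, where 53.3% of all genes were, and the median was 0.10, against 0.01 over all genes.

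Names in the deposit start with BI for 4 libraries (replicates 1 and 2 of each group) and with BM for 3 (deleted replicate 3, wildtype replicates 3 and 4). What the prefix stands for is not given in the labels. Within BI the median difference of the collagen genes was 0.17 with 23 of 36 positive, and within BM, with 1 deleted library, it was 0.18 with 28 of 36 positive. The medians over all genes tested were -0.08 within BI, with 33.9% of them positive, and 0.01 within BM, with 51.4% positive. The BI difference includes E2-2 deleted replicate 2 and is not given without it. Within BI the collagen genes summed to 2865 and 4582 FPKM in deleted replicates 1 and 2. In wildtype replicates 1 and 2 they summed to 2935 and 3221 FPKM, so deleted replicate 1 lay below both. E2-2 deleted replicate 2 held the highest level of 20 of the 36 collagen genes and E2-2 wildtype replicate 4 the lowest of 17, beside 17.2% and 10.4% of all genes.

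**Figure D2:**
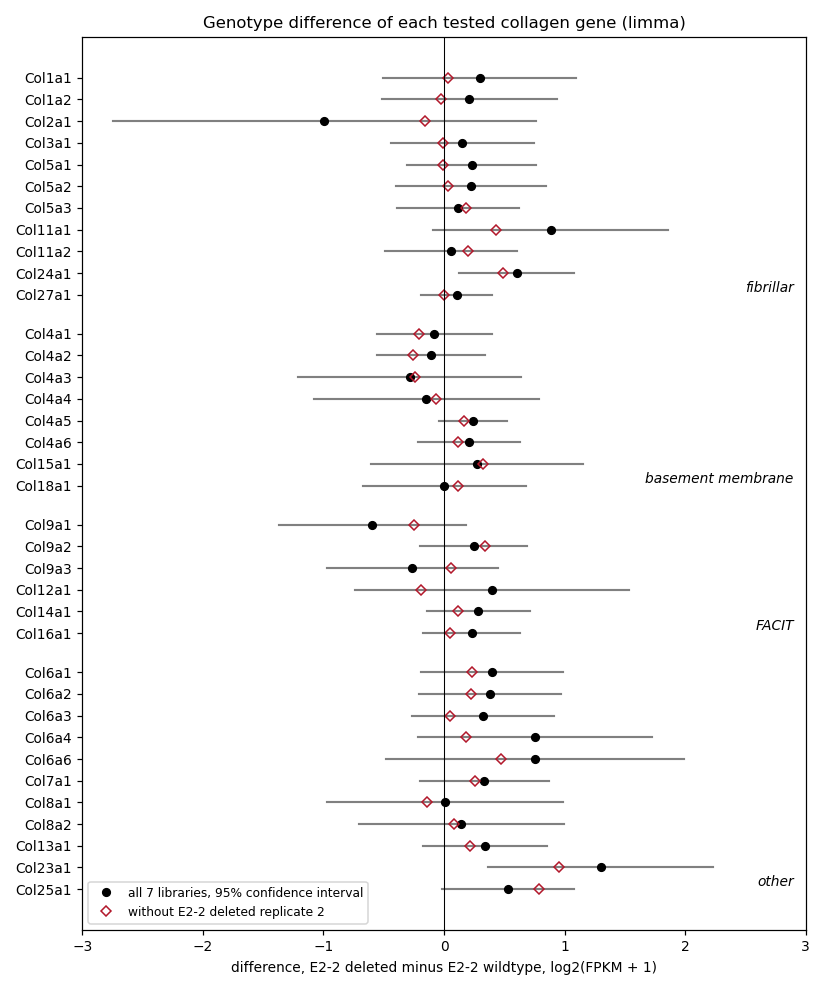
Difference of each of the 36 tested collagen genes, E2-2 deleted minus E2-2 wildtype on the log2(FPKM + 1) scale, with its limma estimate and 95% confidence interval (black) and the estimate without E2-2 deleted replicate 2 (red diamonds). The intervals of Col23a1 and Col24a1 lie above 0 without adjustment, and the diamonds of Col1a1, Col1a2, Col3a1, Col5a1 and Col5a2 lie within 0.04 of 0.

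Col23a1, which encodes a transmembrane collagen with a shed extracellular part, had the largest difference of all collagen genes tested. The gene lies on chromosome 11 from 51103422 to 51397427 in the deposited tables. It was at 25.3, 53.7 and 26.5 FPKM in the deleted libraries and at 19.8, 19.3, 7.45 and 9.32 FPKM in the wildtype libraries. Each deleted library was above each wildtype library. The means were 35.2 ± 16.1 FPKM against 14.0 ± 6.49 FPKM (SD, 3 and 4 libraries), 2.52 times as high in the deleted libraries. On the log2 scale Col23a1 differed by 1.30 (SE 0.40; 95% interval 0.37 to 2.23) with a limma adjusted p of 0.796, at rank 126 of the 13520 genes by p. Within BI it was 0.89 and within BM 1.56, and without deleted replicate 2 it was 0.96. Leaving out each library in turn gave 0.96 to 1.49 with unadjusted limma p-values of 0.00875 to 0.0465.

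Col24a1, a minor fibrillar chain, was the second gene at an unadjusted p under 0.05. It lies on chromosome 3 from 144955436 to 145214969 and was at 5.62, 9.06 and 8.45 FPKM in the deleted libraries and at 6.00, 4.48, 4.92 and 3.47 FPKM in the wildtype libraries. The groups overlapped through deleted replicate 1 and wildtype replicate 1. The difference was 0.60 (SE 0.20; limma adjusted p = 0.796), 0.40 within BI and 0.88 within BM, and 0.49 without deleted replicate 2. Leaving out each library in turn gave unadjusted limma p-values of 0.00564 to 0.0682, and the p was 0.0681 without deleted replicate 2.

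Promoter windows of these 2 genes are shown because they led the comparison. They run from 250 bases before to 50 bases after the gene start, are taken from RefSeq on GRCm38.p6, and are written 5′ to 3′ on the plus strand, which is the strand of both genes. Capitals mark the E-box CANNTG, the core sequence that E proteins such as E2-2 bind. The Col23a1 window lies at chr11:51289670-51289969 and the Col24a1 window at chr3:145292222-145292521. These positions cannot be set against the gene positions given from the deposited tables. There, 0 of the 43 collagen genes had both the start and the end of RefSeq on GRCm38.
Col23a1: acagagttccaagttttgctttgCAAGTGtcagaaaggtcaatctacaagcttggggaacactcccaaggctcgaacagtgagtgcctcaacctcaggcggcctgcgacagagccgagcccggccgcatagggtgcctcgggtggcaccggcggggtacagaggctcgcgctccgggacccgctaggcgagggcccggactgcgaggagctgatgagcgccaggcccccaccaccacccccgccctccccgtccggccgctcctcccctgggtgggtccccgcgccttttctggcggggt
Col24a1: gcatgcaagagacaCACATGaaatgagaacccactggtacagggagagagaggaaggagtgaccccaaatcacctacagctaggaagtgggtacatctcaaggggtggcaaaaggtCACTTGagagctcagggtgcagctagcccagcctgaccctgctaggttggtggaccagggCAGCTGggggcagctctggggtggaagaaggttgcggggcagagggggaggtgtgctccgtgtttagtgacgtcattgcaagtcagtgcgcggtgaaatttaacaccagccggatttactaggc
The Col23a1 window held 1 E-box and the Col24a1 window 3. RefSeq gave 38 windows for 35 of the 43 collagen genes. The letters CANNTG were found in 20 of the 38 windows (52.6%), against 72.3% of all 32851 windows of that length. CTTTGNT, the core bound by the TCF/LEF partners of beta-catenin, was found on either strand in 7 (18.4%), against 18.6% of all windows. The GC box GGGCGG was found in 23 (60.5%), against 35.7%, CCAAT in 13 (34.2%), against 37.4%, and TATAAA in 5 (13.2%), against 13.6%, each counted on both strands. Overlaps between different motifs were not removed. Such matches describe the letters in the window and show neither binding nor its absence.

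The fibrillar class was high in 1 library of each genotype. Its 11 genes summed to 1644, 2828 and 1959 FPKM in the deleted libraries and to 1621, 1707, 2675 and 1382 FPKM in the wildtype libraries. Deleted replicate 2 and wildtype replicate 3 stood above the other 5 libraries, and the groups overlapped. The log2 difference of the sums was 0.22, or 0.00 without deleted replicate 2 and 0.42 without wildtype replicate 3. All 11 fibrillar genes had a mean of at least 1 FPKM, and 10 of the 11 had a positive difference (7 without deleted replicate 2).

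Col1a1, the main chain of type I collagen (chromosome 11, 94797584 to 94813170), was at 547, 1006 and 623 FPKM in the deleted libraries and at 481, 499, 968 and 452 FPKM in the wildtype libraries. The difference was 0.30 (SE 0.34; limma adjusted p = 0.820), 0.60 within BI and -0.09 within BM, and 0.04 without deleted replicate 2. Col1a2, the second chain of type I collagen, had the same 2 high libraries, with 711 FPKM in deleted replicate 2 and 702 FPKM in wildtype replicate 3, and differed by 0.21 (SE 0.31), or -0.02 without deleted replicate 2. Smooth muscle markers were high in the same libraries: Acta2, Myh11, Tagln and Cnn1 summed to 1942 FPKM in deleted replicate 2 and 1873 FPKM in wildtype replicate 3, against 594 to 852 FPKM in the other 5. That sum was 594 to 1942 FPKM over the deleted and 662 to 1873 FPKM over the wildtype libraries, and 3 of its 4 genes had a higher mean in the deleted libraries. Its part in the type I collagen values was not tested.

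Col3a1, the sole chain of type III collagen, was at 475, 749 and 610 FPKM in the deleted libraries and 514, 549, 726 and 419 FPKM in the wildtype libraries, a difference of 0.15 (SE 0.26). Col5a1 and Col5a2, the type V chains that start fibrils, averaged 105 ± 32.4 FPKM against 88.1 ± 17.3 FPKM and 96.6 ± 27.4 FPKM against 82.8 ± 23.3 FPKM, with differences of 0.23 (SE 0.23) and 0.22 (SE 0.27). None of these 3 differences was larger than the spread between libraries, and all 3 were within 0.03 of 0 without deleted replicate 2. Col5a3, another type V chain, and Col27a1, a fibrillar chain of cartilage, differed by 0.12 (SE 0.22) and 0.11 (SE 0.13), or 0.19 and 0.00 without deleted replicate 2.

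The chains of types II and XI, known from cartilage, did not share a direction. Col11a1 (chromosome 3, 113733458 to 113923244) was at 20.7, 65.0 and 29.0 FPKM in the deleted libraries and at 21.8, 26.6, 17.02 and 10.6 FPKM in the wildtype libraries. Only deleted replicate 1 lay within the wildtype range, and the difference was 0.88 (SE 0.42; limma adjusted p = 0.796), or 0.43 without deleted replicate 2. Col11a2 averaged 5.44 ± 1.06 FPKM against 5.31 ± 1.73 FPKM, a difference of 0.06 (SE 0.24), or 0.20 without deleted replicate 2.

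Col2a1, the chain of type II collagen (chromosome 15, 97806033 to 97835155), was at 17.8, 1.60 and 10.7 FPKM in the deleted libraries and at 22.5, 4.89, 21.7 and 22.9 FPKM in the wildtype libraries. Deleted replicate 2 and wildtype replicate 2 were low, and its highest level over the 7 libraries was 14.3 times the lowest. The difference was -0.99 (SE 0.76; limma adjusted p = 0.796), or -0.16 without deleted replicate 2. The same 2 libraries had the lowest levels of Six2, at 2.69 FPKM in deleted replicate 2 and 29.0 FPKM in wildtype replicate 2, with 33.5 FPKM or more in the other 5; the part of these cells in the Col2a1 values was not tested. Of a chondrocyte list, 7 of 8 genes were in the tables and 2 (Sox9 and Lect1) had a mean of at least 1 FPKM. Its summed level was 14.7, 6.54 and 9.78 FPKM in the deleted and 13.3, 11.75, 10.999 and 14.2 FPKM in the wildtype libraries. Sox9 made up most of this sum, at 11.3, 4.11 and 7.54 FPKM and at 8.60, 8.03, 5.97 and 10.1 FPKM. Of the 7 genes, 1 had a higher mean in the deleted libraries. The cartilage proteoglycan gene Acan was at 0.274 to 0.386 FPKM in the deleted and 0.919 to 1.44 FPKM in the wildtype libraries, and the other cartilage matrix genes of the list, Matn1, Matn3, Comp and Chad, were at 0.0502 to 0.647 FPKM in the deleted and 0.0241 to 1.10 FPKM in the wildtype libraries.

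**Figure D3:**
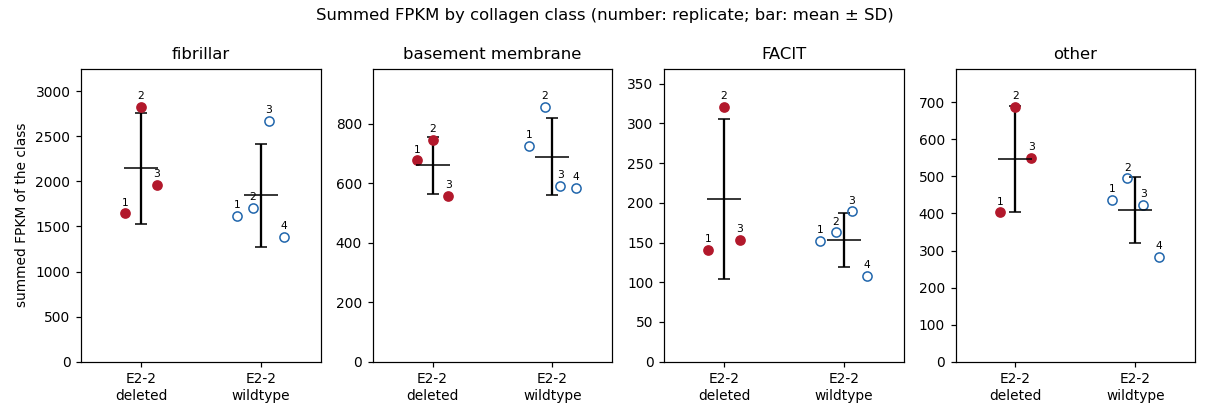
Summed FPKM of each collagen class in the 3 E2-2 deleted libraries (filled, left) and the 4 E2-2 wildtype libraries (open, right), numbered by replicate, with the mean ± SD as bars. Deleted replicate 2 and wildtype replicate 3 are high in the fibrillar class, at 2828 and 2675 FPKM, and deleted replicate 2 is high among the FACIT genes, at 321 FPKM.

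The basement membrane class had the steadiest sum. Its 8 genes summed to 676, 745 and 557 FPKM in the deleted libraries and 725, 856, 591 and 584 FPKM in the wildtype libraries, with a highest value 1.54 times the lowest, against 2.05 times for the fibrillar class. The log2 difference of the sums was -0.06, or -0.15 without deleted replicate 2. All 8 genes had a mean of at least 1 FPKM, and 4 had a positive and 4 a negative difference, with a median of -0.04.

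Col4a1 (chromosome 8, 11198423 to 11312826), the main chain of the basement membrane mesh, was at 312, 368 and 251 FPKM in the deleted libraries and 337, 407, 303 and 265 FPKM in the wildtype libraries. Col4a2, its partner chain, was at 191, 239 and 158 FPKM and at 215, 252, 206 and 169 FPKM. Both pairs of groups overlapped, with differences of -0.08 (SE 0.20) and -0.10 (SE 0.19); these were -0.21 and -0.26 without deleted replicate 2, and 0.02 and 0.02 with quantile normalization. The 2 genes lie head to head, and their starts in RefSeq are 21 bases apart on chromosome 8 of GRCm38.p6. Col4a2, on the plus strand, starts before the start of Col4a1, on the minus strand, so the 2 genes overlap there. The stretch from the Col4a2 start to the Col4a1 start, at chr8:11312805-11312826 on the plus strand, is shown because transcription of both chains begins at its ends.
Shared start of Col4a1 and Col4a2: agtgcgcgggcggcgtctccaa
The X-linked pair Col4a5 and Col4a6, also head to head but with a gap in place of an overlap, has starts 1343 bases apart in the same build.

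Col4a5, a chain of the mature glomerular and of other basement membranes, was at 16.8, 19.2 and 15.9 FPKM in the deleted libraries and at 14.5, 14.0, 12.7 and 16.98 FPKM in the wildtype libraries. The difference was 0.24 (SE 0.12; limma adjusted p = 0.796) and 0.16 without deleted replicate 2. Col4a6, which pairs with Col4a5 outside the glomerulus, averaged 2.42 ± 0.416 FPKM against 1.98 ± 0.431 FPKM, a difference of 0.21 (SE 0.18), or 0.12 without deleted replicate 2.

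Col4a3 and Col4a4, the other chains of the mature glomerular basement membrane, were low in all libraries but 1. Col4a3 (chromosome 1, 82583496 to 82718634) was at 0.926, 0.610 and 0.653 FPKM in the deleted libraries and at 0.814, 3.10, 0.172 and 1.24 FPKM in the wildtype libraries. Col4a4 was at 1.38, 0.792 and 0.876 FPKM and at 0.657, 3.57, 0.400 and 1.28 FPKM. Wildtype replicate 2 was highest in both, and without it the differences were 0.03 for Col4a3 and 0.20 for Col4a4, against -0.29 (SE 0.40) and -0.15 (SE 0.40) with all libraries and -0.24 and -0.07 without deleted replicate 2. Podocytes make these chains as they mature, and the slit diaphragm gene Nphs1 was also highest in wildtype replicate 2, at 5.61 FPKM, with 0.196 to 0.640 FPKM in the deleted libraries and 0.133 to 1.05 FPKM in the other 3 wildtype libraries. The podocyte genes Podxl and Synpo were highest there too, at 53.9 and 30.3 FPKM, while Wt1 was highest in wildtype replicate 4, at 66.4 FPKM. Their part in the values of Col4a3 and Col4a4 was not tested.

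Col15a1 and Col18a1 encode the collagens XV and XVIII, which carry endostatin-type domains and lie at basement membranes. Col15a1 (chromosome 4, 47220884 to 47326037) was at 43.9, 35.1 and 34.9 FPKM in the deleted libraries and 41.6, 49.5, 14.3 and 30.9 FPKM in the wildtype libraries. Col18a1 was at 108, 79.7 and 92.6 FPKM and at 114, 125, 52.9 and 97.3 FPKM. Wildtype replicate 3 was lowest in both. The differences were 0.28 (SE 0.38) and 0.00 (SE 0.29), and without wildtype replicate 3 they were -0.08 and -0.26; without deleted replicate 2 they were 0.33 and 0.11. The 5 endothelial markers Pecam1, Cdh5, Kdr, Tie1 and Emcn were also lowest in that library, with a sum of 170 FPKM, in ranges of 232 to 349 FPKM over the deleted and 170 to 400 FPKM over the wildtype libraries; 1 of the 5 had a higher mean in the deleted libraries, and their part was not tested.

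**Figure D4:**
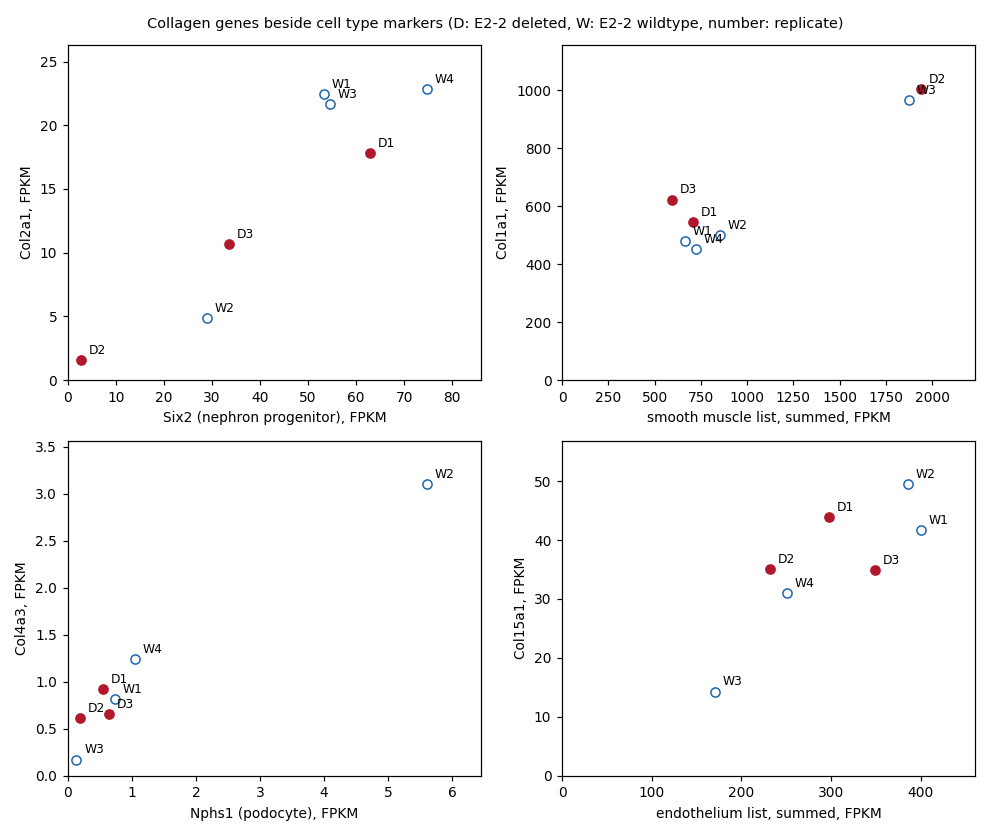
FPKM of 4 collagen genes (vertical axes) against a marker gene or the summed FPKM of a marker list (horizontal axes) in the 7 libraries; D is E2-2 deleted, W is E2-2 wildtype, and the number is the replicate. Col2a1 and Six2 are lowest in D2 and W2, Col1a1 and smooth muscle markers are high in D2 and W3, Col4a3 and Nphs1 are highest in W2, and Col15a1 and endothelial markers are lowest in W3.

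The FACIT sum rested on 1 library. The 9 genes summed to 140, 321 and 153 FPKM in the deleted libraries and 152, 163, 189 and 108 FPKM in the wildtype libraries, a log2 difference of 0.34, or -0.03 without deleted replicate 2. Of the 9, 6 had a mean of at least 1 FPKM, and 4 of these 6 had a positive difference. Col12a1 (chromosome 9, 79446798 to 79566485), a chain on the surface of type I fibrils, was at 53.3, 207 and 67.7 FPKM in the deleted libraries and 64.6, 84.3, 99.5 and 40.9 FPKM in the wildtype libraries. Its difference was 0.40 (SE 0.49; limma adjusted p = 0.822), or -0.19 without deleted replicate 2. Col14a1, which binds fibrils in tendon and skin, and Col16a1 averaged 35.8 ± 8.21 FPKM against 29.0 ± 4.78 FPKM and 43.5 ± 10.7 FPKM against 36.4 ± 4.23 FPKM, with differences of 0.28 (SE 0.18) and 0.23 (SE 0.17), or 0.11 and 0.05 without deleted replicate 2.

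The 3 chains of type IX collagen, a FACIT bound to type II fibrils, differed among themselves. Col9a1 was at 2.63, 0.715 and 2.37 FPKM in the deleted libraries and at 4.45, 1.73, 3.23 and 3.77 FPKM in the wildtype libraries, with the 2 lowest levels in the same libraries as those of Col2a1. Col9a3 was at 3.30, 1.29 and 3.58 FPKM and at 4.85, 2.11, 3.20 and 3.34 FPKM. Col9a2 was at 9.39, 7.40 and 9.26 FPKM and at 9.62, 6.52, 7.75 and 5.27 FPKM, and so did not drop in deleted replicate 2 below the wildtype range. The differences were -0.59 (SE 0.33) for Col9a1, -0.26 (SE 0.30) for Col9a3 and 0.24 (SE 0.19) for Col9a2. Without deleted replicate 2 they were -0.25, 0.06 and 0.34.

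The other 15 chains summed to 404, 688 and 550 FPKM in the deleted libraries and 437, 495, 423 and 283 FPKM in the wildtype libraries. The log2 difference was 0.41, or 0.23 without deleted replicate 2, and deleted replicate 1 lay within the wildtype range. Of the 15, 11 had a mean of at least 1 FPKM, and all 11 of these had a positive difference (10 without deleted replicate 2), with a median of 0.38. Most of the sum came from Col6a1, Col6a2 and Col6a3, the chains of the beaded filaments of type VI collagen.

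Col6a1 (chromosome 10, 76171537 to 76188789) was at 138, 236 and 200 FPKM in the deleted libraries and 156, 178, 146 and 97.8 FPKM in the wildtype libraries. Col6a2 averaged 181 ± 44.7 FPKM against 139 ± 33.7 FPKM and Col6a3 75.6 ± 27.2 FPKM against 58.9 ± 13.5 FPKM. The differences were 0.40 (SE 0.25), 0.38 (SE 0.25) and 0.32 (SE 0.25), with limma adjusted p-values of 0.796 each, and were 0.23, 0.22 and 0.05 without deleted replicate 2. Col6a4 and Col6a6, alternative type VI chains, were lower. Col6a4 was at 1.26, 7.05 and 1.70 FPKM in the deleted libraries and at 1.25, 1.24, 1.34 and 0.891 FPKM in the wildtype libraries, so deleted replicate 2 set its mean. Col6a6 was at 0.838, 5.68 and 6.54 FPKM and at 2.91, 0.973, 2.63 and 0.846 FPKM, high in 2 deleted libraries and lowest in the other. Their differences were 0.75 (SE 0.42) and 0.75 (SE 0.53), or 0.18 and 0.47 without deleted replicate 2.

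Col25a1, a transmembrane collagen known from neurons and developing muscle, was the member whose difference grew most without deleted replicate 2. It was at 14.5, 7.73 and 13.2 FPKM in the deleted libraries (chromosome 3, 129883763 to 130302801) and at 10.01, 8.12, 6.25 and 6.47 FPKM in the wildtype libraries. The difference was 0.53 (SE 0.24, limma adjusted p = 0.796), or 0.79 without deleted replicate 2. The unadjusted limma p was 0.0553, or 0.00452 without that library, where the adjusted p was 0.9997. Leaving out each library in turn gave unadjusted limma p-values of 0.00452 to 0.191. Without deleted replicate 2, the collagen genes at an unadjusted p under 0.05 were Col23a1 and Col25a1, beside 247 of all 13520 genes tested. Col24a1 was not among them. Col13a1, like Col23a1 and Col25a1 a transmembrane collagen, averaged 7.13 ± 1.28 FPKM against 5.54 ± 1.61 FPKM, a difference of 0.34 (SE 0.22), or 0.22 without deleted replicate 2. Col7a1, which forms the anchoring fibrils of skin, averaged 8.18 ± 1.16 FPKM against 6.47 ± 2.12 FPKM, a difference of 0.33 (SE 0.23), or 0.26 without deleted replicate 2. The Col7a1 difference was -0.05 within BI and 0.75 within BM. Col8a1 and Col8a2, short-chain collagens of vessels and eye, averaged 14.6 ± 4.33 FPKM against 15.7 ± 8.59 FPKM and 14.0 ± 2.86 FPKM against 13.7 ± 8.04 FPKM. Both were highest in wildtype replicate 3, at 26.5 and 25.4 FPKM, and their differences were 0.01 (SE 0.42) and 0.14 (SE 0.37), or -0.14 and 0.09 without deleted replicate 2.

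The 7 genes with a mean under 1 FPKM were not tested. Col22a1, a FACIT of tissue junctions, was at 0.401, 0.693 and 0.412 FPKM in the deleted libraries and at 0.330, 0.300, 0.141 and 0.259 FPKM in the wildtype libraries, without overlap but on 22 to 73 inferred fragments per library. Col19a1, a FACIT, was at 0.487, 2.15 and 1.23 FPKM and at 0.547, 0.523, 0.261 and 0.148 FPKM. Col20a1 averaged 1.06 ± 0.509 FPKM against 0.656 ± 0.307 FPKM. Col10a1, the collagen of hypertrophic cartilage, Col17a1, a hemidesmosome collagen of skin, Col6a5 and Col28a1 had means of 0.168 to 0.205 FPKM over the 7 libraries.

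Of 11 pairs of chains examined, the ratio ranged least over the 7 libraries in Col6a1 with Col6a2, Col4a1 with Col4a2 and Col1a1 with Col1a2, where the highest ratio was 1.07, 1.11 and 1.19 times the lowest. Col6a1 was 1.04, 1.07 and 1.05 times Col6a2 in the deleted libraries and 1.06, 1.03, 1.00 and 1.06 times in the wildtype libraries, while the highest level of Col6a1 was 2.41 times its lowest. Col4a1 was 1.54 to 1.63 times Col4a2 in the deleted and 1.47 to 1.62 times in the wildtype libraries. Col1a1 was 1.36, 1.41 and 1.33 times Col1a2 in the deleted and 1.22, 1.19, 1.38 and 1.36 times in the wildtype libraries. Each of these 3 ratios overlapped between genotypes. The trimers of types I and IV are known to hold more of the first chain than of the second, and those of type VI equal numbers. The ratios here are of RNA, and the make-up of the protein was not measured. Col6a3, another type VI chain, was at 0.316 to 0.480 times Col6a1 over the 7 libraries.

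The ratios of the other 8 pairs were wider, those of other type IV and type VI chains included. Col6a3 was 0.316 to 0.453 times Col6a1 in the deleted and 0.350 to 0.480 times in the wildtype libraries, and Col5a1 was 0.857 to 1.28 and 0.921 to 1.19 times Col5a2. Col4a5 was 6.62 to 8.32 times Col4a6 in the deleted and 6.31 to 10.4 times in the wildtype libraries. Col4a3 was 0.672 to 0.770 and 0.430 to 1.24 times Col4a4, and Col8a1 was 0.895 to 1.17 and 0.707 to 2.43 times Col8a2. Col9a1 was 0.280, 0.0966 and 0.256 times Col9a2 in the deleted libraries and 0.462, 0.266, 0.417 and 0.714 times in the wildtype libraries, and the groups overlapped through wildtype replicate 2. Col9a3 was 0.174 to 0.387 and 0.324 to 0.633 times Col9a2. Col11a1 was 1.17, 40.5 and 2.71 times Col2a1 in the deleted libraries and 0.969, 5.44, 0.785 and 0.462 times in the wildtype libraries, the widest range of the 11 ratios.

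**Figure D5:**
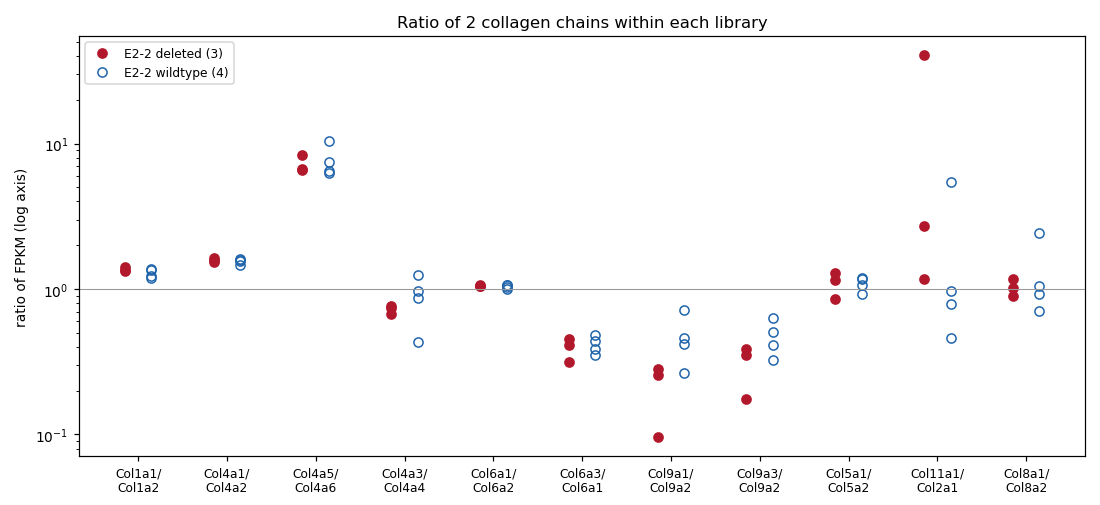
Ratio of the FPKM of 2 collagen chains within each library (log axis) for 11 pairs; filled points are the 3 E2-2 deleted and open points the 4 E2-2 wildtype libraries. The points of Col6a1/Col6a2, Col4a1/Col4a2 and Col1a1/Col1a2 lie within 1.19 times of each other, and those of Col11a1/Col2a1 span 0.462 to 40.5.

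Genes that fold, secrete, trim, cross-link or bind collagen showed no passing difference. Of 18 listed synthesis and secretion genes, 17 were tested, 10 had a positive and 7 a negative difference, and 0 passed; their median was 0.02, or -0.05 with 6 positive without deleted replicate 2. Over all genes tested, 39.3% were positive, or 53.3% without that library. The smallest p-values belonged to the alpha subunits of collagen prolyl 4-hydroxylase, which stabilises the helix, and to Plod1, a lysyl hydroxylase. P4ha1 was at 29.1, 60.6 and 35.6 FPKM in the deleted libraries and at 28.8, 26.7, 33.6 and 23.0 FPKM in the wildtype libraries. P4ha2 averaged 24.6 ± 12.3 FPKM against 14.5 ± 1.69 FPKM and P4ha3 15.8 ± 9.96 FPKM against 8.55 ± 1.497 FPKM. The differences were 0.50 (SE 0.25), 0.62 (SE 0.28) and 0.67 (SE 0.34), and 0.26 (SE 0.19) for Plod1; deleted replicate 2 was highest in all 4, and without it they were 0.20, 0.25, 0.22 and 0.05. Serpinh1, the collagen chaperone HSP47, was at 700, 778 and 686 FPKM in the deleted libraries and at 705, 695, 1047 and 710 FPKM in the wildtype libraries, a difference of -0.11 (SE 0.23), which was -0.16 without deleted replicate 2 and 0.09 with quantile normalization. Plod2, a lysyl hydroxylase, differed by 0.10 (SE 0.18), or -0.05 without deleted replicate 2.

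Of 14 trimming and cross-linking genes, 13 were tested, 9 had a positive and 4 a negative difference, and 0 passed; their median was 0.20, or -0.03 with 6 positive without deleted replicate 2. Adamts3, a procollagen N-proteinase, was at 2.65, 5.39 and 2.70 FPKM in the deleted libraries and at 1.55, 1.72, 2.88 and 1.70 FPKM in the wildtype libraries, a difference of 0.60 (SE 0.25; limma adjusted p = 0.796). It was the 1 gene of the 38 partner genes tested at an unadjusted p under 0.05, beside 4.45% of all genes. Without deleted replicate 2 its difference was 0.33 and the unadjusted limma p 0.171. Pcolce, an enhancer of the C-proteinase, averaged 195 ± 92.6 FPKM against 127 ± 24.4 FPKM, Bmp1, that proteinase, 67.9 ± 14.0 FPKM against 58.2 ± 4.33 FPKM, and Loxl1, a cross-linking oxidase, 22.7 ± 3.18 FPKM against 32.5 ± 15.8 FPKM. Their differences were 0.54 (SE 0.30), 0.20 (SE 0.14) and -0.40 (SE 0.31), and 0.17, 0.05 and -0.51 without deleted replicate 2. Lox, the main cross-linking oxidase, was at 62.8, 129 and 80.1 FPKM in the deleted libraries and at 73.4, 72.3, 174 and 58.7 FPKM in the wildtype libraries, high in the same 2 libraries as Col1a1, and differed by 0.01 (SE 0.40), or -0.27 without deleted replicate 2. Of 10 collagen receptor genes 8 were tested, 4 positive and 4 negative, with a median of 0.05, or -0.13 with 1 positive without deleted replicate 2. The integrin subunit genes Itga1 and Itga2 differed by -0.28 (SE 0.27) and 0.28 (SE 0.34), the discoidin receptor gene Ddr1 by -0.12 (SE 0.14) and the endocytic receptor gene Mrc2 by 0.10 (SE 0.12), none larger than the spread between libraries; without deleted replicate 2 these were -0.51, 0.37, -0.18 and -0.00.

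Markers of bone and tendon, tissues rich in fibrillar collagen, were also read. All 6 osteoblast genes had a higher mean in the deleted libraries, and they summed to 32.0, 84.1 and 83.5 FPKM in the deleted and 43.4, 20.2, 8.73 and 11.5 FPKM in the wildtype libraries, with overlap through wildtype replicate 1. Of the 4 tendon genes, 1 (Fmod) had a higher mean in the deleted libraries, and the sums were 34.9 to 82.5 FPKM and 16.3 to 36.7 FPKM. The 6 skeletal muscle genes, of which 1 (Acta1) had a mean of at least 1 FPKM, summed to 1.22 to 4.84 FPKM and 0.695 to 2.08 FPKM. The 4 basal keratinocyte genes, which mark a source of Col7a1 and Col17a1, summed to 4.64 to 5.13 FPKM and 1.42 to 5.21 FPKM. Of these 4, only 1 (Itgb4) had a mean of at least 1 FPKM. The 5 Schwann and neural crest genes summed to 9.67 to 18.0 FPKM and 5.12 to 15.5 FPKM, and 4 macrophage genes to 40.6 to 85.1 FPKM and 32.6 to 84.3 FPKM. Of the kidney lists, the 6 ureteric bud genes summed to 37.7 to 102 FPKM in the deleted and 46.5 to 123 FPKM in the wildtype libraries, and the 6 stromal genes to 344 to 405 FPKM and 369 to 457 FPKM, so the labelled tissue was present in every library. The part of these cells in the collagen values was not tested.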

How the data were processed

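RNA was poly-A selected and 7 libraries were prepared by the TruSeq method, per the labels' protocols. For every library the authors deposited gene-level FPKM with a lower and an upper bound, per the file headers. The submitters' processing notes name CASAVA (1.8.2), TopHat2 (2.0.4) and Cufflinks (2.0.2) but not what each did. The genome build is not given in the sources used here, so none is named for coordinates of the deposited tables. The start of each locus was raised by 1, since 239 of 20982 starts then equalled those of RefSeq on GRCm38, against 19 as deposited. In 1 table, 25 symbols read as dates and were taken from another table with identical loci.

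No read counts are in the tables. Inferred fragments are the square of 2 times the FPKM over the distance to its upper bound; among genes with few fragments and a single start, 79.5% to 80.4% lay within 0.05 of a whole number. This is an inference, and edgeR and DESeq2 were not run.

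Entries of a symbol were summed, genes with a status other than OK in any library were left out (23032 genes remained), and the 13520 whose mean reached 1 FPKM went into limma 3.58.1 in R 4.3.3 (log2(FPKM + 1), empirical Bayes with trend, 2-sided, Benjamini-Hochberg over all genes tested, threshold 0.05). On simulated data, it recovered 62% of 100 genes shifted by 1 on the log2 scale and 91% of 100 shifted by 2, with 8 false calls. The simulated noise was independent between genes, so it held no shift shared across a library, as in E2-2 deleted replicate 2. Class sums and chain ratios had no test. Replicate numbers follow deposit order and pair no samples. Members, lists, classes, markers and tests were chosen with earlier results of these data known. Named genes were all collagen genes tested, the 4 partner genes of smallest p per list, and Serpinh1, P4ha1, P4ha2, Plod2 and Lox. Alternatives were other pseudocounts (0.1 and 10), minimums (none and 5 FPKM), scalings, a prefix term, the highest entry of a symbol, and leaving out each library. Some podocyte markers are not reported here, and the summed level of that list is left out with them.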

Additional observations from a re-analysis of the deposited data

Results flagged for a closer look

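In the wildtype group of 4 libraries, a value was marked when its gap to the nearest other value took up more of the group's range than Dixon's 95% limit for 4 values. Of 55 genes and class sums examined, 5 (9.09%) were marked, where chance marks about 5%. In E2-2 wildtype replicate 3, Col1a1 was at 968 FPKM, against 452 to 499 FPKM in the other 3 wildtype libraries. The collagen chaperone gene Serpinh1 was at 1047 FPKM in that library, against 695 to 710 FPKM. The cross-linking gene Lox was at 174 FPKM, against 58.7 to 73.4 FPKM, and the procollagen proteinase gene Adamts3 at 2.88 FPKM, against 1.55 to 1.72 FPKM. Col2a1 was at 4.89 FPKM in E2-2 wildtype replicate 2, against 21.7 to 22.9 FPKM in the other 3. The deleted group of 3 libraries was too small for this check.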

How the results depend on the processing

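No paired analysis was possible because the labels carry no replicate numbers, and the numbers used here only name the libraries. No gene passed the adjusted p in any run that left out 1 library (0 to 0 genes). With no minimum on low values 1 gene passed, Ndufs5, at a mean of 0.942 FPKM, with a difference of 1.67 and a limma adjusted p of 0.000899. At an unadjusted p under 0.05, 601 genes stood in the comparison as reported, 994 with no minimum and 391 with a mean of at least 5 FPKM. Leaving out each library gave 247 (without E2-2 deleted replicate 2) to 1463 (without E2-2 deleted replicate 1), with 317 without E2-2 wildtype replicate 4. The collagen genes among them numbered 2 to 6 of 36. As reported they were 2, beside 4.45% of all genes tested. Without deleted replicate 1 they were 6, beside the 1463 of all genes. Without wildtype replicate 2 they were 4. The number over all genes in that run lay within the 247 to 1463 above and is not given here. No rise particular to collagen genes can therefore be read from that count. The median collagen difference was 0.10 to 0.32, and the class sums differed by 0.00 to 0.42 (fibrillar), -0.15 to 0.06 (basement membrane), -0.03 to 0.56 (FACIT) and 0.23 to 0.62 (other).

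The sign was the same in all alternatives for 21 of the 36 collagen genes. With a pseudocount of 10, Col18a1 was at -0.00289 and Col8a1 at -0.0223. With quantile normalization Col4a1 was at 0.0186, Col4a2 at 0.0170 and Serpinh1 at 0.0873, and with the name prefix as a term Col18a1 was at -0.0693. Leaving out each library gave both signs for these genes. The fibrillar ranges were -0.0248 to 0.43 for Col1a2, -0.00822 to 0.32 for Col3a1, -0.0102 to 0.36 for Col5a1, -0.0851 to 0.25 for Col5a3 and -0.0729 to 0.20 for Col11a2. In the basement membrane class they were -0.21 to 0.0632 for Col4a1, -0.26 to 0.0396 for Col4a2, -0.57 to 0.0347 for Col4a3, -0.37 to 0.20 for Col4a4, -0.0800 to 0.49 for Col15a1 and -0.26 to 0.15 for Col18a1. Among the rest they were -0.44 to 0.0568 for Col9a3, -0.19 to 0.78 for Col12a1, -0.31 to 0.30 for Col8a1 and -0.0739 to 0.47 for Col8a2. For partner genes they were -0.16 to 0.0345 for Serpinh1, -0.0462 to 0.27 for Plod2, -0.27 to 0.35 for Lox, -0.19 to 0.0172 for Ddr1, -0.0260 to 0.45 for Itga2 and -0.000534 to 0.18 for Mrc2. The cause was not tested. Without read counts, the tables give no depth beyond the inferred fragments, and 3 and 4 libraries limit the precision.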
